A study of Mus musculus with 4 samples.

Results

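The genes described here are the serpins of mouse skin other than Serpinb3. Members were taken by name: every gene whose annotated symbol begins with Serpin, without Serpinb3a to Serpinb3d, that had a probe set annotated to it alone. This gave 39 genes of the 18193 measured, 14 in clade A, 17 in clade B and 8 in clades C to I. The RefSeq table lists 26 further Serpin symbols outside Serpinb3, among them Serpina1a and Serpina3g, which were not analysed here.

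RNA from skin was measured on 4 Affymetrix 3′ expression arrays, 2 per group. All mice were female, BALB/c and wild type, and all had first been sensitized through the ear skin with ovalbumin (OVA) together with calcipotriol (MC903), so the controls had also met MC903 once. After an oral OVA challenge, either MC903, which acts on the vitamin D receptor and brings on dermatitis, or its vehicle ethanol (EtOH) was put on the skin, and a further oral challenge followed before the treated skin was taken. The labels give no age. They leave unsaid whether each array stands for its own mouse, so the p-values speak for the spread among these samples only, which may be technical.

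Serpins are a family of proteins that share a fold with an exposed reactive centre loop. In the inhibitory members a protease cuts this loop and is trapped by the shape change that follows, while other members have lost inhibition and act as hormone carriers, chaperones or, like ovalbumin, storage proteins. Ovalbumin, the antigen fed to these mice, is itself a serpin and the namesake of clade B, the ov-serpins, which stay mostly inside cells and are abundant in keratinocytes and leukocytes, whereas clade A serpins such as the antitrypsins are secreted, largely by the liver.

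In MC903-treated skin, the serpins standing furthest above the vehicle were Serpina9, Serpina3n, Serpinb11, Serpina1b, Serpina10, Serpinb1a and Serpinb6b, by 1.04 to 2.87 on the log2(signal + 16) scale. Serpinb12 and Serpinb7 stood furthest below it among those whose arrays did not overlap, by -1.26 and -0.85. The abundant keratinocyte serpin Serpinb2 stood at 0.39 and the adipokine Serpina12 at -0.04, while Serpinb5, also abundant in keratinocytes, differed in direction between its probe sets. Signals are linear array intensities as deposited, and differences are means of log2(signal + 16), MC903 minus vehicle, ± SE from limma with 2 arrays per group. Every SE is from the fit with a constant prior, also beside a p-value from the prior that follows the signal. The added constant understates the change of dim genes.

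No Serpin gene passed limma's test with a constant prior at an adjusted p of 0.05 over all genes, where 0% of all genes passed. The smallest adjusted p among the members was 0.159, for Serpinb11. Unadjusted p-values under 0.05 were found for 11 Serpin genes above the vehicle and 1 below it, that is 28.2% and 2.56% of the 39, against 6.82% and 8.39% of all genes. With a prior that follows the signal, limma called 0.539% of all genes higher and 0.385% lower, and among the serpins it called Serpinb11 alone (adjusted p = 0.0357). That call was lost without either vehicle array or without MC903 replicate 1. Without MC903 replicate 2, which leaves 1 MC903 array, the difference of Serpinb11 was 1.39. That fit called many more of all genes, so its call of Serpinb11 says little. For single genes, the smallest two-sided p that exact permutation of these 4 arrays allows is 0.333.

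Counted without a test, 20 of the 39 serpins (51.3%) had both MC903 arrays above both vehicle arrays, 5 (12.8%) had both below, and 14 overlapped. Of all genes, 21.6% lay above and 28.2% below. Centring each array on its median turned that split over all genes from 3921 above and 5123 below to 5227 and 3827, while the serpins stood at 21 and 5. The median difference was 0.19 for the serpins and -0.04 for all genes. A difference of at least 2-fold in all 4 pairings of arrays was reached by Serpina9 and Serpinb11 above the vehicle (5.13% of the serpins, against 1.16% of all genes). No serpin reached it below the vehicle, where 0.813% of all genes did.

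**Figure D1:**
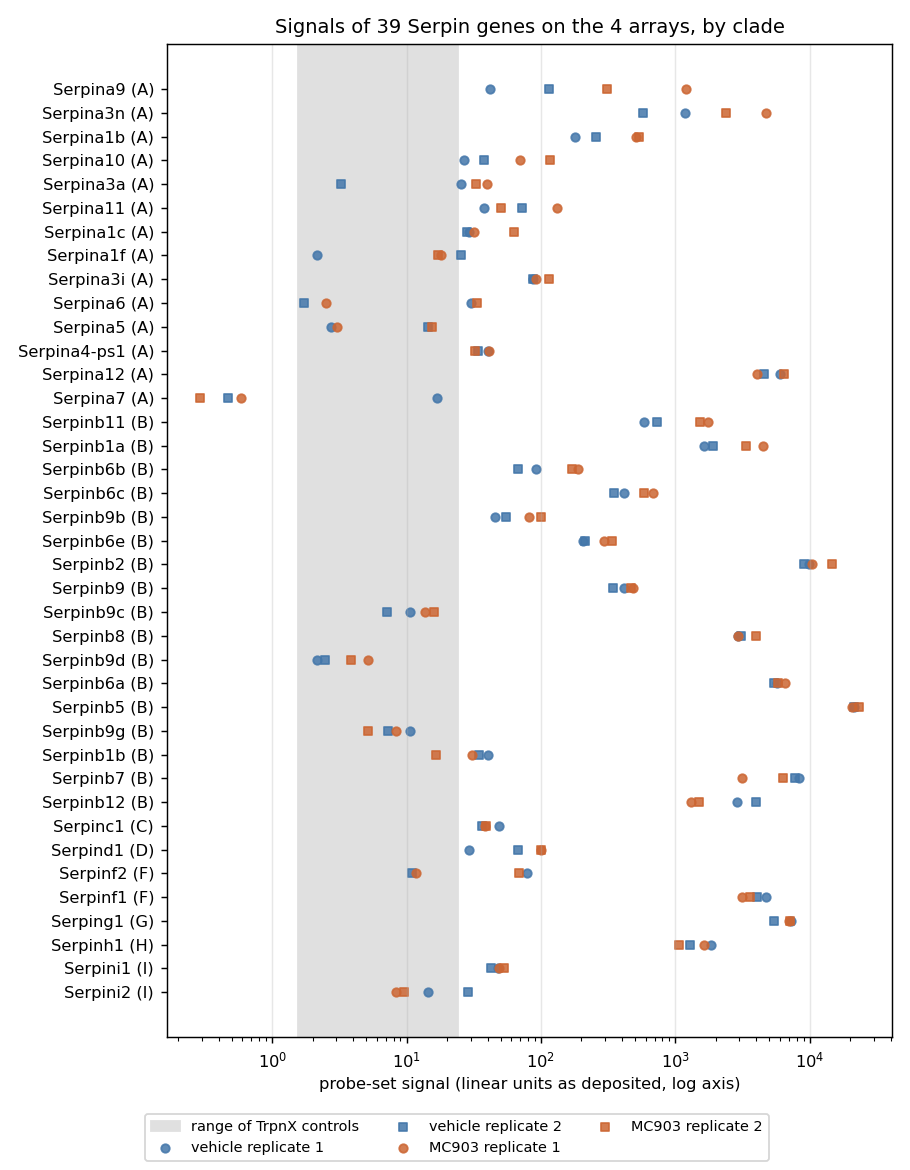
Signal of each Serpin gene on the 4 arrays (x axis, linear units as deposited on a log axis), genes grouped by clade, circles for replicate 1 and squares for replicate 2, vehicle in blue and MC903 in orange. The grey band is the range of the TrpnX controls, 1.55 to 24.0: 5 genes lie at or under its upper end on every array, and the nearest arrays of the 2 groups lie at least 2-fold apart for Serpina9 and Serpinb11.

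**Figure D2:**
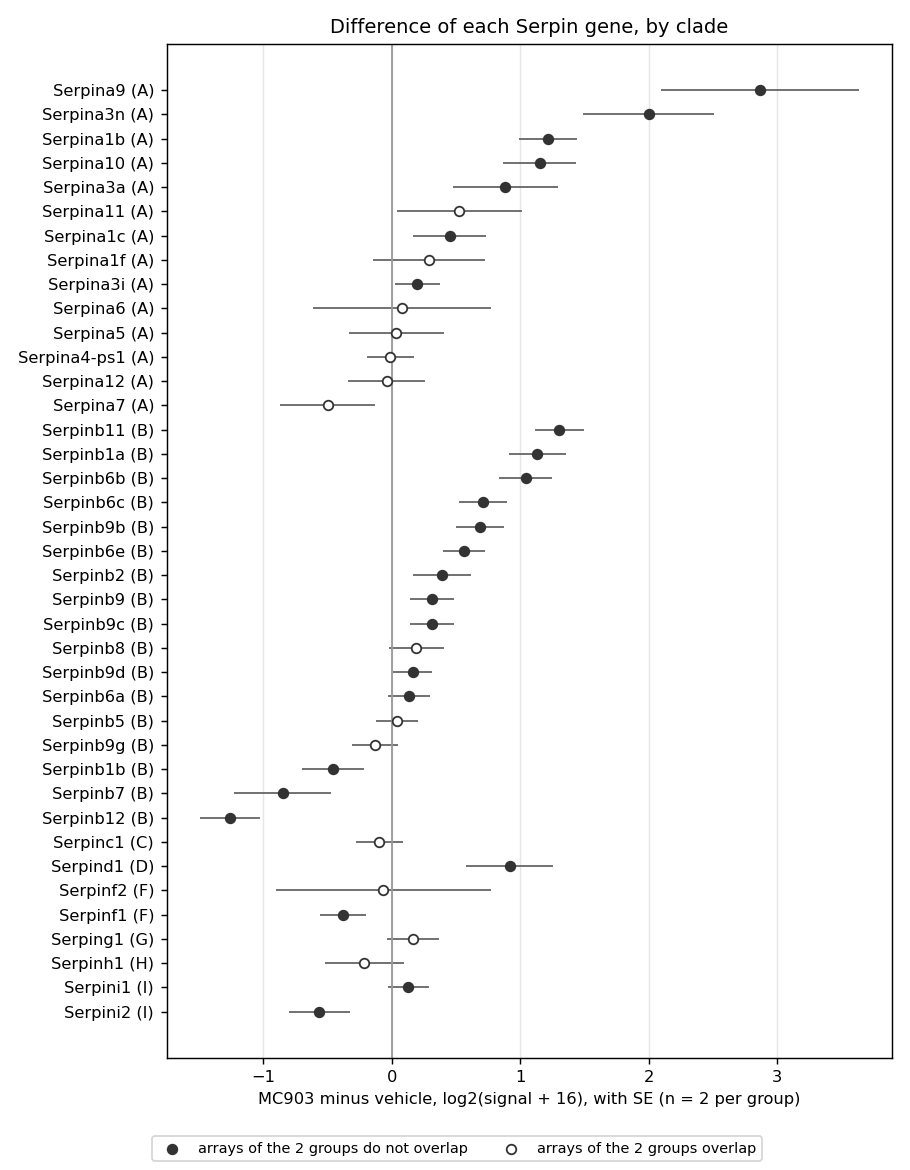
Difference of each Serpin gene (x axis, MC903 minus vehicle on the log2(signal + 16) scale, bars are the SE, n = 2 arrays per group), filled where the groups' arrays do not overlap. The values run from -1.26 for Serpinb12 to 2.87 for Serpina9, and 20 of the 25 filled points lie above 0.

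The TrpnX controls, probe sets for bacterial transcripts, had signals of 1.55 to 24.0 and serve as a guide to background. Of the serpins, 28 were above the highest of them on all 4 arrays and 6 on some. The other 5 (Serpina5, Serpina7, Serpinb9c, Serpinb9d and Serpinb9g) were above it on no array, so they were not well above background.

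The epidermal clade B serpins on chromosome 1 did not all lie on the same side of the vehicle. In gene order they are Serpinb5, Serpinb12, Serpinb11, Serpinb7, Serpinb2 and Serpinb8, the measured members of a run of neighbouring genes that also holds the Serpinb3 genes. Of these 6, 2 lay above the vehicle with no overlap, 2 below, and 2 overlapped, with a median difference of 0.12. That split is not far from the 21.6% above and 28.2% below of all genes.

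Serpinb11, whose mouse protein inhibits trypsin-like proteases, gave signals of 587 and 726 in vehicle skin and 1742 and 1536 in MC903 skin. Both MC903 arrays were well above both vehicle arrays, and the replicates lay close together. The difference was 1.30 ± 0.19, a 2.47-fold difference (limma adjusted p = 0.159 with a constant prior).

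Serpinb12, an inhibitor of trypsin and plasmin found in surface epithelia, lay on the other side of the vehicle. Its signals were 2862 and 4015 in vehicle skin and 1309 and 1511 in MC903 skin. Both MC903 arrays were low, with a difference of -1.26 ± 0.23 (limma adjusted p = 0.190, and 0.0597 with the prior that follows the signal). A further Serpinb12 probe set read 324 and 442 against 201 and 163, a difference of -0.999.

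Serpinb7, a keratinocyte serpin whose human counterpart is lost in the palmoplantar keratosis of Nagashima type, read 8322 and 7718 in vehicle skin and 3119 and 6334 in MC903 skin. The groups did not overlap, but the MC903 arrays differed: replicate 1 lay at -1.36 and replicate 2 at -0.34 from the vehicle mean. The difference was -0.85 ± 0.38 (limma adjusted p = 0.387).

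Serpinb2, plasminogen activator inhibitor type 2, read 9902 and 9012 in vehicle skin and 10484 and 14649 in MC903 skin. The MC903 arrays were both higher, the second by far the more, and the difference was 0.39 ± 0.23 (limma adjusted p = 0.478). Serpinb8, a furin inhibitor, overlapped at 2920 and 3059 against 2917 and 3996.

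Serpinb5, maspin, a serpin without inhibitory activity that marks basal keratinocytes, depended on the probe set. The brightest read 21444 and 21322 in vehicle skin and 20616 and 23466 in MC903 skin, which overlap, with a difference of 0.04 ± 0.16. Each of its 3 other probe sets, 2 with a suffix for possible cross-hybridisation, was lower in both MC903 arrays, with differences of -0.34, -0.44 and -0.47. The first of these read 10269 and 10396 against 7836 and 8504. The direction of Serpinb5 therefore cannot be given from these arrays.

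The keratinocyte markers around these genes differed unevenly between the groups. The summed signal of 7 activated-keratinocyte markers was 23080 to 25382 in vehicle skin and 118511 to 213806 in MC903 skin, all 7 higher with no overlap. That of 7 suprabasal markers was 134925 to 142457 against 160022 to 189712, with 3 of 7 higher. The 7 basal markers summed to 104203 to 105150 against 101967 to 105035, with 3 higher and 4 lower. All 10 hair follicle markers were lower, summing to 26502 to 44865 in vehicle skin and 1951 to 2837 in MC903 skin. Skeletal muscle markers, 9 in number, summed to 60513 and 36241 in vehicle skin and to 11682 and 45763 in MC903 skin, the lowest in MC903 replicate 1. The part of these cell types in the serpin values was not tested. In bulk skin, fewer cells of a type and less RNA per cell cannot be told apart.

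The sequence before the start of every serpin gene with a promoter window was searched, and matches are printed for these 6 neighbours only. Serpinb10, Serpinb13 and the Serpinb3 genes also lie in this run, but their windows were not set beside these. In the 250 bases before the start, all 6 held at least 1 match to TGANTCA, a loose form of the site that AP-1 transcription factors bind, searched on both strands. They are shown for what these 6 share although their signals did not move together. Each window is read 5′ to 3′ on the plus strand, on which all 6 genes lie, in lower case with the match in capitals, from RefSeq's GRCm38.p6.
Serpinb5, chr1:106861005-106861071, 140 bases before the start: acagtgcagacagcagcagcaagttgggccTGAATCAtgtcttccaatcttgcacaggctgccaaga
Serpinb12, chr1:106934374-106934440, 45 bases before the start: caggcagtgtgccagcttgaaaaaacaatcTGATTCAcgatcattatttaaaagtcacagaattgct
Serpinb11, chr1:107362103-107362169, 181 bases before the start: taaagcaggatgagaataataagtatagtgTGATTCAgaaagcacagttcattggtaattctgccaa
Serpinb11, chr1:107362208-107362274, 76 bases before the start: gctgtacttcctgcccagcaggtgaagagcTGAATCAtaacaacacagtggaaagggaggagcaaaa
Serpinb7, chr1:107422614-107422680, 45 bases before the start: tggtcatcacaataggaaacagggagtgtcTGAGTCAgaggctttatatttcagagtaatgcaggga
Serpinb2, chr1:107511299-107511365, 94 bases before the start: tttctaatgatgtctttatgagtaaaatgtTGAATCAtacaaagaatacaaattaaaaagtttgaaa
Serpinb8, chr1:107589953-107590005, 23 bases before the start: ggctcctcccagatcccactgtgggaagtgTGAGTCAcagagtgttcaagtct

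Over all promoters of the RefSeq table, 6.75% of 32851 windows and 7.82% of 27025 genes held a TGANTCA match. Of the 33 serpin genes with a window, 8 held it: these 6 and the clade A genes Serpina1b and Serpina1c. The consensus forms TGACTCA or TGAGTCA, a subset of TGANTCA that was looked at after its matches had been seen, were in 4 of the 33, Serpina1b, Serpina1c, Serpinb7 and Serpinb8, against 5.16% of all genes. Among the 6 neighbours the consensus was thus in Serpinb7 and Serpinb8 and not in the other 4. The shared match was found before genes that were higher, genes that were lower and genes whose arrays overlapped.

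Of the other motifs searched on both strands, TATAAA was in 6 of 33 serpins against 14.3% of all genes, 3 of them (Serpinb12, Serpinb2 and Serpinb7) in the same run. TTCNNNGAA, the spaced palindrome that STAT factors bind, was in 6 of 33 against 8.13% of all genes. The DR3 element through which the vitamin D receptor acts matched no serpin window, and 0.0444% of all genes had a match. A match is a description of letters and not a site of binding.

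**Figure D3:**
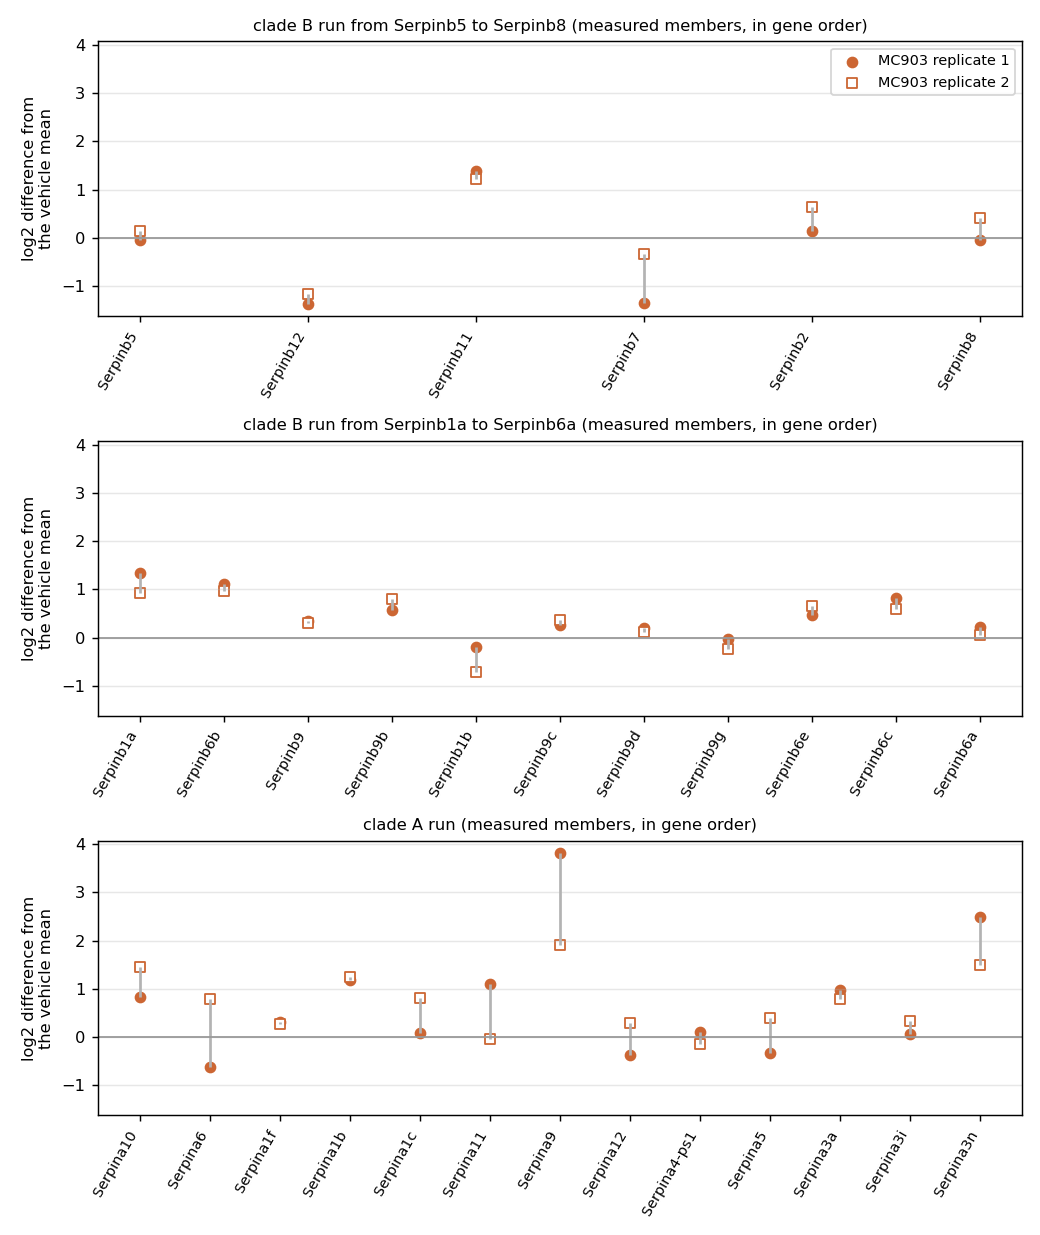
Difference of each MC903 array from the vehicle mean (y axis, log2(signal + 16)), for the measured members of 3 runs of neighbouring Serpin genes in gene order (x axis), filled circles for replicate 1 and open squares for replicate 2. The run from Serpinb5 to Serpinb8 has members on both sides of 0, while 9 of 11 members of the run from Serpinb1a to Serpinb6a lie above the vehicle with no overlap.

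The other clade B members belong to a second run, from Serpinb1a to Serpinb6a, which holds the leukocyte-protease inhibitors and their mouse duplicates. Of its 11 measured members 9 were above the vehicle with no overlap, 1 was below and 1 overlapped, against 21.6% of all genes above and 28.2% below. The median difference was 0.31. Of the 9, Serpinb9c and Serpinb9d were above the highest TrpnX control on no array. None of its 10 members with a promoter window held TGANTCA.

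Serpinb1a, which inhibits neutrophil elastase, proteinase 3 and cathepsin G, led this run. Its signals were 1629 and 1895 in vehicle skin and 4474 and 3356 in MC903 skin, higher in both. The difference was 1.13 ± 0.22 (limma adjusted p = 0.194, and 0.0624 with the prior that follows the signal). A dimmer probe set read 232 and 228 against 486 and 383, a difference of 0.86. Its paralogue Serpinb1b lay below the vehicle and near background, at 40.5 and 34.7 against 30.9 and 16.6.

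The Serpinb6 group was measured as 4 genes. Serpinb6a, an inhibitor of cathepsin G and trypsin-like proteases, was bright and nearly level at 5737 and 5440 against 6538 and 5772, a difference of 0.14 ± 0.16. Its duplicates stood further apart. Serpinb6b read 92.2 and 67.0 in vehicle skin and 190 and 169 in MC903 skin, a difference of 1.04 ± 0.21 (limma adjusted p = 0.198). Serpinb6c read 415 and 347 against 686 and 580, a difference of 0.71 ± 0.19 (limma adjusted p = 0.250). Serpinb6e read 206 and 212 against 297 and 337, a difference of 0.56 ± 0.16. All 4 were higher in both MC903 arrays, but the probe sets of Serpinb6c and Serpinb6e carry suffixes for possible cross-hybridisation, so signal from near copies may be shared among them.

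Serpinb9, the inhibitor of granzyme B that protects cells from their own cytotoxic granules, read 417 and 346 in vehicle skin and 484 and 469 in MC903 skin. Its difference was 0.31 ± 0.17 (limma adjusted p = 0.463), and a further probe set overlapped between groups at 0.25. Its duplicate Serpinb9b read 45.7 and 55.0 against 81.8 and 100.02, a difference of 0.69 ± 0.18. The remaining duplicates, Serpinb9c, Serpinb9d and Serpinb9g, stayed between 2.17 and 15.97 on all arrays by their brightest probe sets. A dimmer Serpinb9c probe set read 0.46 and 1.26 against 13.4 and 11.8, also no higher than the controls.

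Markers of leukocytes were set beside these genes. The summed signal of 9 macrophage markers was 23863 to 25318 in vehicle skin and 34728 to 57781 in MC903 skin, with 9 of 9 higher. The 6 measured neutrophil markers summed to 241 to 318 against 517 to 1387, with 3 of 6 higher and the rest overlapping. The 6 measured T cell markers summed to 706 to 819 against 1462 to 1563, with 5 of 6 higher. The 7 mast cell markers summed to 7896 to 8940 against 8721 to 11121, with 2 higher, 1 lower and 4 overlapping. Their part in the Serpinb1a to Serpinb6a values was not tested.

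In clade A, 7 of 14 genes were above the vehicle with no overlap, none was below, and 7 overlapped, where 21.6% of all genes were above and 28.2% below. The median difference was 0.37. By MC903 array the median was 0.21 in replicate 1 and 0.59 in replicate 2. All but Serpina7 lie in a single run of neighbouring genes.

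Serpina9, known as centerin and best known from germinal centre B cells, had the widest difference of the 39 serpins. Its signals were 42.0 and 114 in vehicle skin and 1207 and 312 in MC903 skin. The groups did not overlap, yet the MC903 arrays lay far apart, with replicate 1 the higher. The difference was 2.87 ± 0.77, or 7.29-fold, and it was 3.81 in replicate 1 and 1.92 in replicate 2 (limma adjusted p = 0.253). Of 7 measured B cell markers, 2 were higher with no overlap (Ms4a1 and Cd22), 1 was lower (Bcl6) and 4 overlapped, with a median difference of 0.31. Bcl6, which other cells also make, held most of their summed signal of 2798 and 2618 in vehicle skin and 1661 and 2048 in MC903 skin. Leaving Bcl6 out turned the direction of the sum. The other 6 summed to 288 and 315 in vehicle skin and 480 and 333 in MC903 skin, with 2 higher and 4 overlapping. The defining marker Cd79a was above the highest TrpnX control on no array. That list was added after the values had been seen, and its part in the Serpina9 value was not tested.

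Serpina3n, a secreted acute-phase inhibitor of chymotrypsin-like proteases, was the brightest of the clade A genes that stood apart. It read 1187 and 574 in vehicle skin and 4741 and 2363 in MC903 skin. Replicates differed about as much within each group, and both MC903 arrays remained above the vehicle. The difference was 1.998 ± 0.51, or 3.99-fold, with 2.50 in replicate 1 and 1.498 in replicate 2 (limma adjusted p = 0.243). Without vehicle replicate 1 it was 2.51, and without vehicle replicate 2 it was 1.48.

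Serpina1b, an alpha-1-antitrypsin that restrains neutrophil elastase, read 179 and 258 in vehicle skin and 508 and 536 in MC903 skin. Its MC903 arrays lay close together and above the vehicle, with a difference of 1.22 ± 0.23 (limma adjusted p = 0.190). A further probe set read 145 and 219 against 424 and 585, a difference of 1.40. Both probe sets carry a suffix for possible cross-hybridisation, and the mouse has several near-identical antitrypsin genes, so the signal cannot be assigned to Serpina1b alone. A probe set annotated to Serpina1e, Serpina1c and Serpina1b together stayed near background, at 28.7 and 23.8 against 0.58 and 26.1. Serpina1c was higher in both MC903 arrays but dim, at 29.3 and 28.4 against 31.8 and 62.6.

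Serpina10, the protein Z-dependent inhibitor of clotting factor X, was dim and higher in both MC903 arrays. It read 27.0 and 37.6 in vehicle skin and 69.6 and 116 in MC903 skin, a difference of 1.15 ± 0.28 (limma adjusted p = 0.234). Its probe set carries a suffix for several possible transcripts. Serpina3a, a duplicate of Serpina3n, was near background at 25.3 and 3.26 against 39.5 and 32.8, a difference of 0.88 ± 0.41 that was 0.33 without vehicle replicate 2. Serpina3i, also of that group, read 87.2 and 87.0 against 91.4 and 114.

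Serpina12, vaspin, an adipokine also made by keratinocytes that inhibits kallikrein 7, was the brightest of clade A. It read 6028 and 4585 in vehicle skin and 4076 and 6435 in MC903 skin, so each group spanned nearly the range of the other, with a difference of -0.04 ± 0.30. Its direction turned to 0.04 when arrays were centred on their medians. The 5 measured adipocyte markers summed to 2381 to 2622 in vehicle skin and 3177 to 5830 in MC903 skin, with 4 of 5 higher, and their part in the Serpina12 values was not tested. Serpina11, a little-studied member, overlapped at 37.4 and 72.4 against 131 and 50.7.

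The remaining clade A genes gave no separation by their brightest probe sets. Serpina6, the carrier of corticosteroids, read 30.1 and 1.73 against 2.51 and 33.4, and Serpina1f read 2.16 and 25.6 against 18.0 and 17.2. Serpina4-ps1, a pseudogene, stayed between 32.3 and 41.2. Serpina5, the protein C inhibitor, and Serpina7, the carrier of thyroxine, were above the controls on no array.

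Hepatocyte markers were examined beside the liver-type serpins. Their summed signal over 9 genes was 256 and 400 in vehicle skin and 263 and 541 in MC903 skin, which overlap, and 3 of 9 were higher and 1 lower. Ttr, Fgb, Fgg and Ahsg were above the highest TrpnX control on no array, and albumin (Alb) read 49.0 and 64.05 against 38.8 and 66.1.

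Outside clades A and B, 2 of 8 genes were above the vehicle with no overlap, 2 below and 4 overlapped, close to the 21.6% above and 28.2% below of all genes, with a median difference of -0.08. Serpind1, heparin cofactor II, which inhibits thrombin, read 29.3 and 67.5 in vehicle skin and 99.3 and 100.8 in MC903 skin. Its MC903 arrays were alike while the vehicle arrays differed widely, and the difference was 0.92 ± 0.34 (limma adjusted p = 0.324). Without vehicle replicate 1 it was 0.48, and without vehicle replicate 2 it was 1.36. Serpinc1, antithrombin, was dim and level at 48.9 and 36.6 against 38.3 and 39.2, a difference of -0.10 ± 0.18.

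Serpinf1, pigment epithelium-derived factor, a non-inhibitory protein that restrains blood vessel growth, was lower in both MC903 arrays. It read 4710 and 4046 in vehicle skin and 3146 and 3576 in MC903 skin, a difference of -0.38 ± 0.18 (limma adjusted p = 0.405). A further probe set read 2643 and 2136 against 1541 and 1855, a difference of -0.49. Fibroblast markers, 8 in number, summed to 79857 to 86836 in vehicle skin and 69204 to 74454 in MC903 skin, with 5 of 8 lower. Their part in the Serpinf1 value was not tested.

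Serping1, the inhibitor of complement C1, read 7278 and 5467 in vehicle skin and 7071 and 7078 in MC903 skin, which overlap, a difference of 0.17 ± 0.20. Serpinh1, the collagen chaperone Hsp47, read 1834 and 1278 against 1626 and 1068, a difference of -0.21 ± 0.31. Within each group the first replicate was the higher, so the groups overlapped almost throughout. Serpini1, neuroserpin, an inhibitor of tissue plasminogen activator, read 47.8 and 42.6 against 48.4 and 53.5, a difference of 0.13 ± 0.16, with further probe sets at 0.28 and, within the range of background, at -0.04.

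The last genes were dim. Serpini2 read 14.5 and 28.5 in vehicle skin and 8.39 and 9.49 in MC903 skin, lower in both but within the range of the controls on 3 of 4 arrays. Serpinf2, the plasmin inhibitor alpha-2-antiplasmin, read 78.4 and 11.1 against 11.8 and 68.1, a difference of -0.06 ± 0.83 with replicates far apart in both groups. Of the 16 further probe sets of 12 serpins, 5 had the opposite sign to the gene's brightest, in Serpinb5, Serpinb8 and Serpini1.

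The proteases and partners on which serpins act were set beside them, from lists drawn up by function. Of 17 epidermal serine proteases, the kallikreins and their relatives that cleave desmosomes and filaggrin, 11 were above the vehicle with no overlap and 1 below, against 21.6% and 28.2% of all genes. Of the 11, Tmprss11d was above the highest TrpnX control on no array. The prior that follows the signal called 6 of the 17 higher and none lower, against 0.539% and 0.385% of all genes. The median difference was 0.66. Klk13 read 196 and 258 in vehicle skin and 9790 and 3189 in MC903 skin, a difference of 4.54 ± 0.58 (limma adjusted p = 0.0308 with that prior). Klk9 read 323 and 408 against 3663 and 3391, a difference of 3.22 ± 0.19 (limma adjusted p = 0.00396 with that prior). With the constant prior none of the 17 was called.

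Klk7, the target of Serpina12, was named for that pairing after its values were seen. It read 9271 and 8506 in vehicle skin and 20651 and 18693 in MC903 skin, both arrays higher, with a difference of 1.14 ± 0.16 (limma adjusted p = 0.159 with the constant prior and 0.0272 with the prior that follows the signal). Its inhibitor Serpina12 stood at -0.04 ± 0.30. Whether the inhibitor and the protease differ in response was not tested.

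Of 19 leukocyte granule proteases, 9 were above the vehicle with no overlap and 2 below, against 21.6% and 28.2% of all genes. Of the 9, Prtn3 and Gzmd were above the highest TrpnX control on no array. None of the 19 was called under either prior, and the median was 0.34. Gzmb, granzyme B, the target of Serpinb9, read 57.0 and 72.7 in vehicle skin and 714 and 220 in MC903 skin, a difference of 2.37 ± 0.58. Mcpt8, the basophil protease, read 4.67 and 4.21 against 2972 and 257. Both were highest in MC903 replicate 1, while Gzmc (85.5 and 269 in MC903 skin) and Mcpt1 (17.7 and 31.1) were highest in replicate 2. The elastase gene Elane, a target of Serpinb1a and Serpina1b also named for its pairing, overlapped at 2.29 and 45.4 against 12.1 and 59.0. Of the other Serpinb1a targets, Prtn3 (proteinase 3) was higher but at background, at 5.13 and 7.22 against 12.6 and 10.7. Ctsg (cathepsin G) overlapped at 102 and 125 against 133 and 95.4.

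Of 10 papain-family cathepsins, lysosomal proteases that some ov-serpins inhibit, 7 were above the vehicle and 1 below, against 21.6% and 28.2% of all genes, with a median of 0.57. Ctss read 5400 and 5799 in vehicle skin and 13280 and 9990 in MC903 skin, a difference of 1.04 ± 0.21. Ctsz read 3862 and 3477 against 12008 and 5043, a difference of 1.08 ± 0.45. Of 8 measured genes of the complement and contact systems, which Serping1 restrains, 4 were above and none below, against 21.6% and 28.2% of all genes, with a median of 0.29. They include the lectins Mbl1 and Mbl2, and F12, 1 of the 4 above, exceeded the highest TrpnX control on no array. Masp1, of the lectin pathway, read 305 and 277 against 444 and 426, a difference of 0.55 ± 0.16, and Masp2 stood at 0.49 ± 0.39. No member of these lists was called under either prior.

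The 19 plasminogen and clotting genes, targets and cofactors of Serpinb2, Serpinc1, Serpind1, Serpina10 and Serpinf2, had 4 above the vehicle and 6 below, close to the 21.6% and 28.2% of all genes. Their median was -0.19, and none was called under either prior. F7, clotting factor VII, read 75.8 and 48.3 in vehicle skin and 448 and 144 in MC903 skin, a difference of 1.83 ± 0.57. Tfpi2, itself an inhibitor of plasmin, read 36.5 and 28.3 against 153 and 135, a difference of 1.73 ± 0.18. Both were higher in each MC903 array, F7 mainly in replicate 1.

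Of 17 genes of collagen folding and crosslinking, the partners of Serpinh1, 4 were above and 3 below, against 21.6% and 28.2% of all genes, with a median of -0.02 and none called under either prior. Col1a1 read 1126 and 1345 in vehicle skin and 745 and 754 in MC903 skin, a difference of -0.70 ± 0.17. P4ha3, a prolyl hydroxylase subunit, stood at 0.68 ± 0.19.

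Other inhibitor families were set beside the serpins as well. Of their 26 measured genes, 7 were above and 8 below the vehicle, close to the 21.6% and 28.2% of all genes, with a median of 0.02. The prior that follows the signal called 3 higher and none lower, against 0.539% and 0.385% of all genes. Stfa2l1, a stefin that inhibits cathepsins, read 41.3 and 64.9 in vehicle skin and 19577 and 5858 in MC903 skin, a difference of 7.30 ± 0.63 (limma adjusted p = 0.0122 with that prior). Stfa3 read 328 and 264 against 18789 and 10570, a difference of 5.51 ± 0.33 (limma adjusted p = 0.00419 with that prior). None of the 39 serpins analysed, which leave out the Serpinb3 genes, came near these sizes, the widest being Serpina9 at 2.87.

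**Figure D4:**
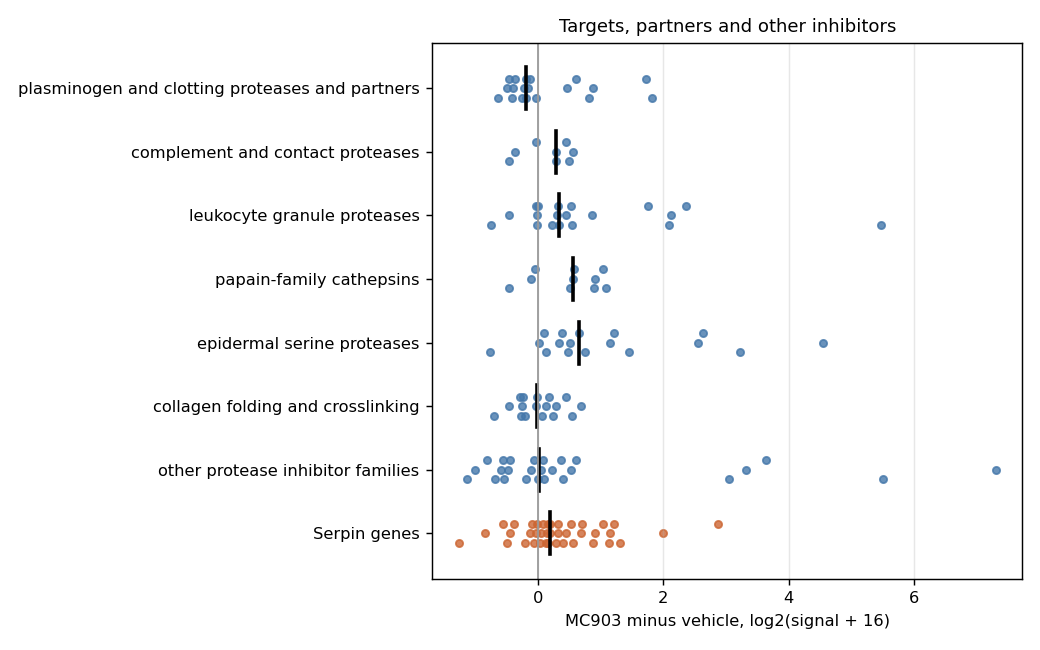
Difference of each measured gene (x axis, MC903 minus vehicle on the log2(signal + 16) scale) in 7 lists of protease targets, partners and other inhibitors, and of the 39 serpins in orange. Black bars are medians, from -0.19 for the clotting list to 0.66 for the epidermal serine proteases, with 0.19 for the serpins.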

How the data were processed

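Biotin-labelled RNA, made from 200 ng of total RNA per sample per the labels' protocols, was measured on 3′ arrays. The authors deposited linear array intensity values for 45101 probe sets; the software that made them was not given in the sources used here. The mean without the extremes was 500 on every array, and array medians were 90.2 to 109. No detection calls were used.

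Probe sets were named by the platform annotation, with symbols updated by Entrez ID (34741 of 34945 single-symbol probe sets matched) to RefSeq of GRCm38.p6. The 64 controls and 932 probe sets with several symbols were left out of the tests. Each gene took the probe set with the highest mean log2(signal + 16), giving 18193 genes, with no filter and no further normalization. Groups came from the labels. limma 3.58.1 in R 4.3.3 was fitted on all genes, with 2 residual and 2.32 prior degrees of freedom (3.72 where the prior follows the signal) and Benjamini-Hochberg adjustment over all genes. The fit was tested on simulated data. Deviations of arrays with the same replicate number had a correlation of -0.06, so numbers were not taken as pairs. The number of arrays limits the precision.

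Members and lists were chosen with earlier results of these data known. Full signals are given for serpins called under either prior, for the 12 widest differences without overlap and above the controls, for 15 well-known members where measured, for the brightest of each clade, and for the 2 widest of each list. Signals of other serpins, and of Klk7, Elane, Prtn3 and Ctsg, were added after their values were seen. Alternatives were the prior, normalization, added constant, dim-gene filter, probe-set choice, replicate block and left-out arrays. The highest linear mean as the probe-set rule, and the recounts under the prior that follows the signal, were added after the data were seen.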

Additional observations from a re-analysis of the deposited data

How the results depend on the processing

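With a constant prior, the count of Serpin genes called was 1 without the dimmest 50% of genes, where fewer genes were tested, and 0 under every other setting with that prior, the replicate block included; it was 1 with the prior that follows the signal. Each time the gene was Serpinb11 (limma adjusted p = 0.0351 and 0.0357). Without the dimmest 50%, the constant prior called 96 of all genes higher and 81 lower. With the prior that follows the signal, the count was 2 when arrays were centred on their medians (Serpinb1a joined). Of all genes, 138 were then called higher and 70 lower. It was 3 without the dimmest 25% or 50% of genes (Serpinb1a and Serpinb12 joined), where 141 and 114 of all genes were higher and 115 and 98 lower. It was 3 with the replicate block (Serpina3n and Serpinb12 joined), where 138 of all genes were higher and 90 lower. With an array left out, the count under that prior moved further in both directions. A lone array then stands for a group, so those counts are not given. When an array was left out, the difference of Serpinb11 ran from 1.15 to 1.45. Without the dimmest 50%, which left 16 serpins, 8 were above the vehicle with no overlap, 3 below, and 1 at least 2-fold above in all pairings. Of the 9096 genes left there, 2072 were above, 3027 below and 96 at least 2-fold above. Without the dimmest 25%, which left 25 serpins, 3 were below, as were 4408 of the 13644 genes left. With an array left out, and so fewer pairings to satisfy, 22 to 25 serpins were above, 6 to 11 below, 4 to 5 at least 2-fold above and 0 to 2 at least 2-fold below. Of all 18193 genes, 5879 to 6513 were above, 7080 to 8037 below, 415 to 659 at least 2-fold above and 279 to 557 at least 2-fold below. The lone array of a group was then assumed to vary like the other group.

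Of 22 serpins named by rule, 17 kept their sign under each setting that retained them; leaving out the dimmest 50% of genes removed Serpina9, Serpina10, Serpina3a, Serpinb6b, Serpind1 and Serpini1 among these, and leaving out 25% removed Serpina3a. Serpina12 turned to 0.043 with arrays centred on their medians and ran from -0.37 to 0.29 with an array left out. Serpinb5 was -0.19 after quantile normalization, -0.30 as the mean of its probe sets, and -0.053 to 0.13 with an array left out. Leaving out an array also turned Serpinc1 (-0.25 to 0.056), Serping1 (-0.041 to 0.37) and Serpinh1 (-0.51 to 0.086). Beyond fewer genes or arrays, the cause was not tested. The median difference of the serpins ran from 0.14 to 0.39. Signals within the range of the TrpnX controls limit what can be said of the dimmest serpins.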
